A study of Mus musculus with 48 samples.

Results

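Matrix metalloproteinases and their inhibitors were followed in mouse macrophages as 9 genes, chosen by name: the proteinases Mmp2, Mmp12, Mmp13, Mmp14, Mmp19 and Mmp27, and the inhibitors Timp1, Timp2 and Timp3. Each of the 9 symbols matched 1 of the 51789 gene rows of the count table, and all 9 passed the filter on low counts in both fits used here. The series holds 48 libraries, sequenced from the 3′ ends of mRNA, in 16 groups of 3. Macrophages of 8 populations were exposed for 4 h to AP-3-84 at 10 µM or to DMSO (vehicle), and the labels say nothing of what AP-3-84 is. The labels do not say whether the 3 replicates of a group came from separate animals or cultures, so p-values measure only the spread between these samples, which may be technical.

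The ascites population came from mice that had carried ID8 tumours, grown from a line of mouse ovarian epithelium, for 45 days. The thio population came from the peritoneum 4 days after it was irritated with 1 ml of 3% thioglycollate. Magnetic beads against F4/80, a macrophage surface protein, were used to sort both. All samples carry the strain label C57BL/6, but the genotype label of the ascites samples is B6(Cg)-Tyrc-2J/J and that of the thio samples is wild-type, so tumour, irritant and that label cannot be told apart in the comparison of both. The 6 other populations, named WT_M0 to KO_M2, were macrophages differentiated from bone marrow of wild-type (WT) or p53 knockout (KO) mice with M-CSF (10 ng/mL, 6 days). M1 cells then had LPS (100 ng/mL) and IFN-γ (50 ng/mL) for 24 h, M2 cells IL-4 and IL-13 (10 ng/mL each), and M0 cells neither. The genotype label calls every bone marrow-derived sample wild-type. Titles and descriptions separate WT from KO, and the grouping follows these.

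Matrix metalloproteinases are zinc enzymes that cut collagens, elastin, gelatin and other proteins outside the cell. They are made as inactive precursors, and tissue inhibitors of metalloproteinases (TIMPs) bind the active enzymes and block them. Mmp12, the macrophage elastase, takes its common name from these cells. Mmp14 sits in the cell membrane, and together with TIMP-2 it activates the precursor of Mmp2, a gelatinase.

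Mmp12 and Mmp13, a collagenase, lie near each other on chromosome 9 and were the proteinases whose RNA rose with AP-3-84 in thio macrophages and with M2 polarization in both genotypes, so the DNA before their starts is shown. The windows run from 250 bases before to 50 bases after the start given by RefSeq (GRCm38.p6, plus strand). They were found for 7 of the 9 genes, all but Mmp2 and Mmp19. Capitals mark the AP-1 letters TGAGTCA and the TATA letters TATAAA, each searched on both strands. In the Mmp13 window, at chr9:7272264-7272563, these begin 35 and 16 bases before the start. In the second of 2 windows of Mmp12, at chr9:7347124-7347423, they begin 44 bases before and 5 bases after the start. That window lies inside the gene as annotated, which begins at 7344381.
Mmp13: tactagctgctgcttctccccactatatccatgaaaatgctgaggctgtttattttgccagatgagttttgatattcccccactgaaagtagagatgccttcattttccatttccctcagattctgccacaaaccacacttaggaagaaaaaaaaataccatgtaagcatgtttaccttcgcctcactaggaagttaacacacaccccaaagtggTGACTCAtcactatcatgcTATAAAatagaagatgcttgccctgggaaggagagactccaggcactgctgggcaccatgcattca
Mmp12: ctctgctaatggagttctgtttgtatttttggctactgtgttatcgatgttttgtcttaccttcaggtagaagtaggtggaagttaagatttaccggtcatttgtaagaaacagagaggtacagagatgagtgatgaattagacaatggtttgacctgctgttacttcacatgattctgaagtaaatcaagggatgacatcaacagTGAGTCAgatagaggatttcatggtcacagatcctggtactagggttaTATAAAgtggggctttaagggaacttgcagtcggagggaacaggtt
Among the 8 windows of the 7 genes, the AP-1 letters stood in these only, as did TATAAA, against 5.2% and 13.6% of 32851 promoter windows of the same length. A search for the PEA3 letters AGGAAG on both strands, not in capitals, found them in 5 of the 8 windows (Mmp13, the first of Mmp12, Mmp14, Timp1 and Timp3) and in 35.4% of all. No matches of different motifs overlapped in either printed sequence. These are matches of letters and no measurement of binding. The printed genes were picked by their results in these data. Mmp19, also called with AP-3-84 in thio cells and with M2 in KO cells, has no window. The matches therefore cannot be tied to the responses.

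The 12 peritoneal libraries held 15532373 to 19417581 counts each, and the 36 others 3081707 to 4645148. Levels are given as CPM, a gene's counts over the scaled total of its library in units of 1000000 counts. Trp53, the gene knocked out, overlapped between genotypes, at 4.79 to 13.2 CPM in the 18 WT and 2.70 to 9.11 CPM in the 18 KO bone marrow-derived libraries. The labels do not give the deleted part, and reads from the 3′ end outside it would not show the deletion. Cdkn1a, a p53 target, ran from 555 to 1119 CPM in the 18 WT and from 34.1 to 292 CPM in the 18 KO libraries, which is the order the titles give. All 8 macrophage markers were over 1 CPM on average in every group, and their sum was lowest in KO_M2 vehicle, at 5970 CPM in 1 library. Arg1, a marker of M2 cells, ran from 689 to 2815 CPM in M2 libraries and reached 141 CPM in the others of bone marrow origin. WT_M2 vehicle replicate 1 stood apart from the other libraries of its group in several of the 9 genes. In KO_M2 vehicle, replicate 1 was highest for Mmp14 and Mmp19, and replicate 3 was highest for Mmp13. Some fold changes of the 9 genes moved by over 1.5 times when any of these libraries was left out. For those named here, the value without the library is given where the comparison is described. Group means and genes from the lists were not recomputed without single libraries. Tmem198b and Syn3 run antisense through exons of Mmp19 and Timp3. Whether counting used strand is not given in the sources used here, and without strand such reads cannot be told apart. Over all libraries Tmem198b had 1887 counts beside 9590 of Mmp19, and Syn3 had 63 beside 10033 of Timp3.

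The 9 genes differed between ascites and thio macrophages without compound: edgeR called all 9 (adjusted p under 0.05), and it called 33.7% of the 16955 genes tested. Mmp2, Mmp13, Mmp14, Timp1 and Timp3 were higher in ascites macrophages. Mmp12, Mmp19, Mmp27 and Timp2 were lower. The groups overlapped for none of them, and each call held under every alternative tried. The share of all genes without overlap was not counted, in this comparison or in those below. In bulk RNA, more cells of a type and more RNA per cell cannot be told apart. The median log2 difference of the 9 genes was 0.93, against 0.05 over all genes tested.

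**Figure D1:**
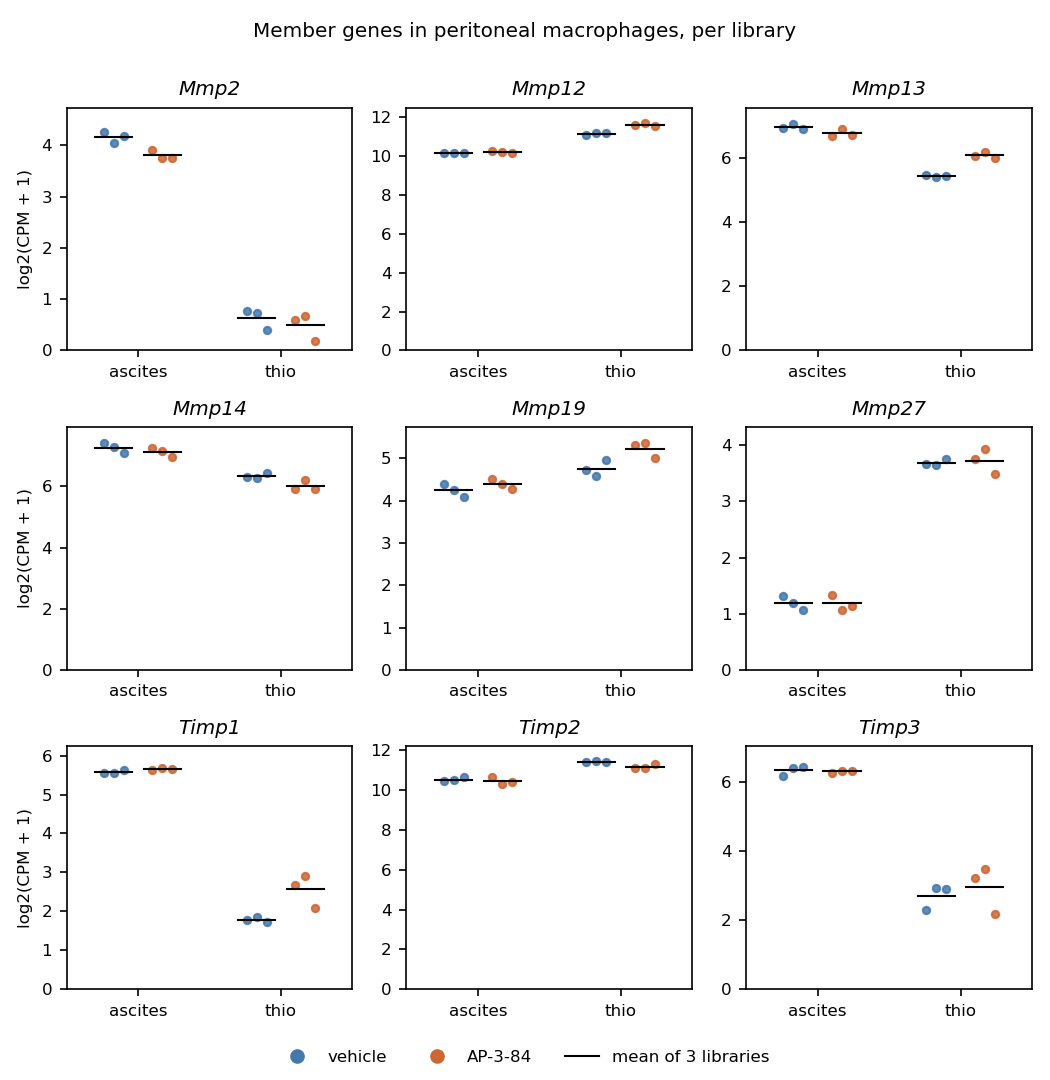
Level of each of the 9 genes in the 12 peritoneal libraries, as log2(CPM + 1), for ascites and thio macrophages with vehicle (blue) or AP-3-84 (orange). Each point is 1 library and the line is the mean of the 3 points. Mmp2, Timp1 and Timp3 show the widest gaps between ascites and thio cells, and Mmp12, Mmp13 and Timp1 lie higher with AP-3-84 in thio cells.

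Among the proteinases, the gelatinase Mmp2 (chromosome 8, 92827291 to 92853420, GRCm38) read 18.2, 15.5 and 17.1 CPM in the 3 ascites vehicle libraries and 0.702, 0.668 and 0.325 CPM in thio vehicle. Every ascites library was above every thio library, and the groups were 30.0-fold apart (log2 4.91 ± 0.29 SE, adjusted p = 3.12e-10). The thio values rest on 6 to 11 counts per library. Mmp13 (chromosome 9, 7272514 to 7283331) read 121, 133 and 119 CPM in ascites and 43.7, 41.4 and 42.5 CPM in thio macrophages, 2.93-fold apart (log2 1.55 ± 0.08 SE, adjusted p = 7.13e-11). Its membrane-bound relative Mmp14 (chromosome 14, 54431612 to 54445364) was 1.91-fold higher in ascites cells, at 170, 156 and 136 against 78.8, 76.8 and 86.6 CPM (log2 0.93 ± 0.10 SE, adjusted p = 1.69e-06). Both thus went the way of Mmp2, with smaller differences.

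The elastase Mmp12 (chromosome 9, 7344381 to 7369499) went the other way. It read 1131, 1144 and 1139 CPM in ascites and 2192, 2333 and 2299 CPM in thio macrophages, 2.00-fold lower in ascites cells (log2 -1.00 ± 0.06 SE, adjusted p = 1.57e-10). Mmp27 (chromosome 9, 7571396 to 7581885), a member of the family that has been studied little, read 1.50, 1.28 and 1.08 against 11.6, 11.6 and 12.5 CPM and was 9.23-fold lower (log2 -3.21 ± 0.21 SE, adjusted p = 1.65e-09). For Mmp19 (chromosome 10, 128790910 to 128800824), the values were 19.9, 17.9 and 16.1 and 25.6, 23.0 and 30.0 CPM, 1.46-fold lower in ascites cells (log2 -0.55 ± 0.13 SE, adjusted p = 0.00264). Its groups lay closest together of the 9.

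The inhibitors divided in the same comparison. Timp1, which blocks most soluble metalloproteinases (chromosome X, 20870166 to 20874735), read 45.7, 45.8 and 48.7 CPM in ascites and 2.43, 2.61 and 2.33 CPM in thio cells, 19.0-fold apart (log2 4.25 ± 0.17 SE, adjusted p = 2.92e-12). Timp3, the inhibitor that binds to the matrix itself (chromosome 10, 86300372 to 86349506), read 71.2, 84.2 and 84.6 and 3.89, 6.56 and 6.46 CPM, 14.1-fold higher in ascites cells (log2 3.82 ± 0.31 SE, adjusted p = 5.44e-06). Timp2 (chromosome 11, 118301069 to 118355740, minus strand) read 1379, 1429 and 1586 CPM against 2727, 2786 and 2703 CPM and was 1.87-fold lower (log2 -0.90 ± 0.09 SE, adjusted p = 6.26e-07). Ascites macrophages thus held more RNA of Timp1 and Timp3 and less of Timp2.

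Sums of cell type markers also differed between these groups, in both directions. The 12 markers of fibroblasts and mesothelium summed to between 113 and 132 CPM in ascites vehicle and between 20.9 and 32.7 CPM in thio vehicle libraries, and 1 of the 12, Msln, was at 0 in thio vehicle. The 10 markers of ovarian epithelial or ID8 cells summed to between 148 and 177 CPM in ascites and between 3.8 and 5.49 CPM in thio vehicle, led in ascites by Krt18 at 73.3 and Krt8 at 51.6 CPM, and 3 of the 10 (Epcam, Cldn3 and Cldn4) were at 0 in thio vehicle. Other lists were lower in ascites than in thio vehicle. The 9 neutrophil markers summed to 62.4 to 94.8 against 107 to 112 CPM, and the 5 endothelial markers to 19.4 to 31.5 against 45.5 to 49.9 CPM. For the 8 macrophage markers the sums were 28833 to 30677 against 34346 to 34808 CPM. The part of all these markers in the levels of the 9 genes was not tested.

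Genes around the proteinases were read from lists, beside the 33.7% of all genes called and the median of 0.05 given above. Of 17 other metalloproteinase genes, 7 were tested in peritoneal cells: Mmp11 was higher in ascites cells (log2 2.79), and Mmp8 (log2 -1.81) and Mmp9 (log2 -0.97) were lower, with a list median of -0.35. Among genes of plasminogen activation, which starts another cascade that can activate metalloproteinase precursors, Plau (0.89), Plat (3.62) and Serpinb2 (2.38 on the log2 scale) were higher. All 5 cathepsins, lysosomal proteases, were lower, from Ctsk at -4.17 to Ctss at -0.50, with a median of -1.71. Of 17 substrates in the matrix, 11 were higher, among them Sparc (3.73) and Col4a2 (4.65), and Fn1 (-0.57) and Spp1 (-1.20) were lower, with a median of 1.33. Of 6 tested genes of activation, docking and clearance, Pcsk7 and Cd44 were higher and Lrp1 (-1.70) and Cd63 (-1.38) lower, with a median of 0.04, and 4 of 10 ADAM and ADAMTS proteases were higher and 1, Adam8, lower, with a median of 0.21. The collagens Col1a1 and Col3a1 stand in this list and among the fibroblast markers.

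With M2 polarization, Mmp12 had the largest rise among the 9 genes in both genotypes. In WT cells 4 of the 9 genes were called in M2 against M0 (23.4% of the 11779 genes tested in bone marrow-derived cells were called), and all 4 rose: Mmp12, Mmp13, Timp1 and Timp2. In KO cells 6 were called (38% of all genes). Mmp12, Mmp13 and Mmp19 rose, and Mmp2, Timp1 and Timp3 fell. The median log2 difference of the 9 was 0.91 in WT and 0.39 in KO cells, against 0.01 and 0.02 over all genes.

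**Figure D2:**
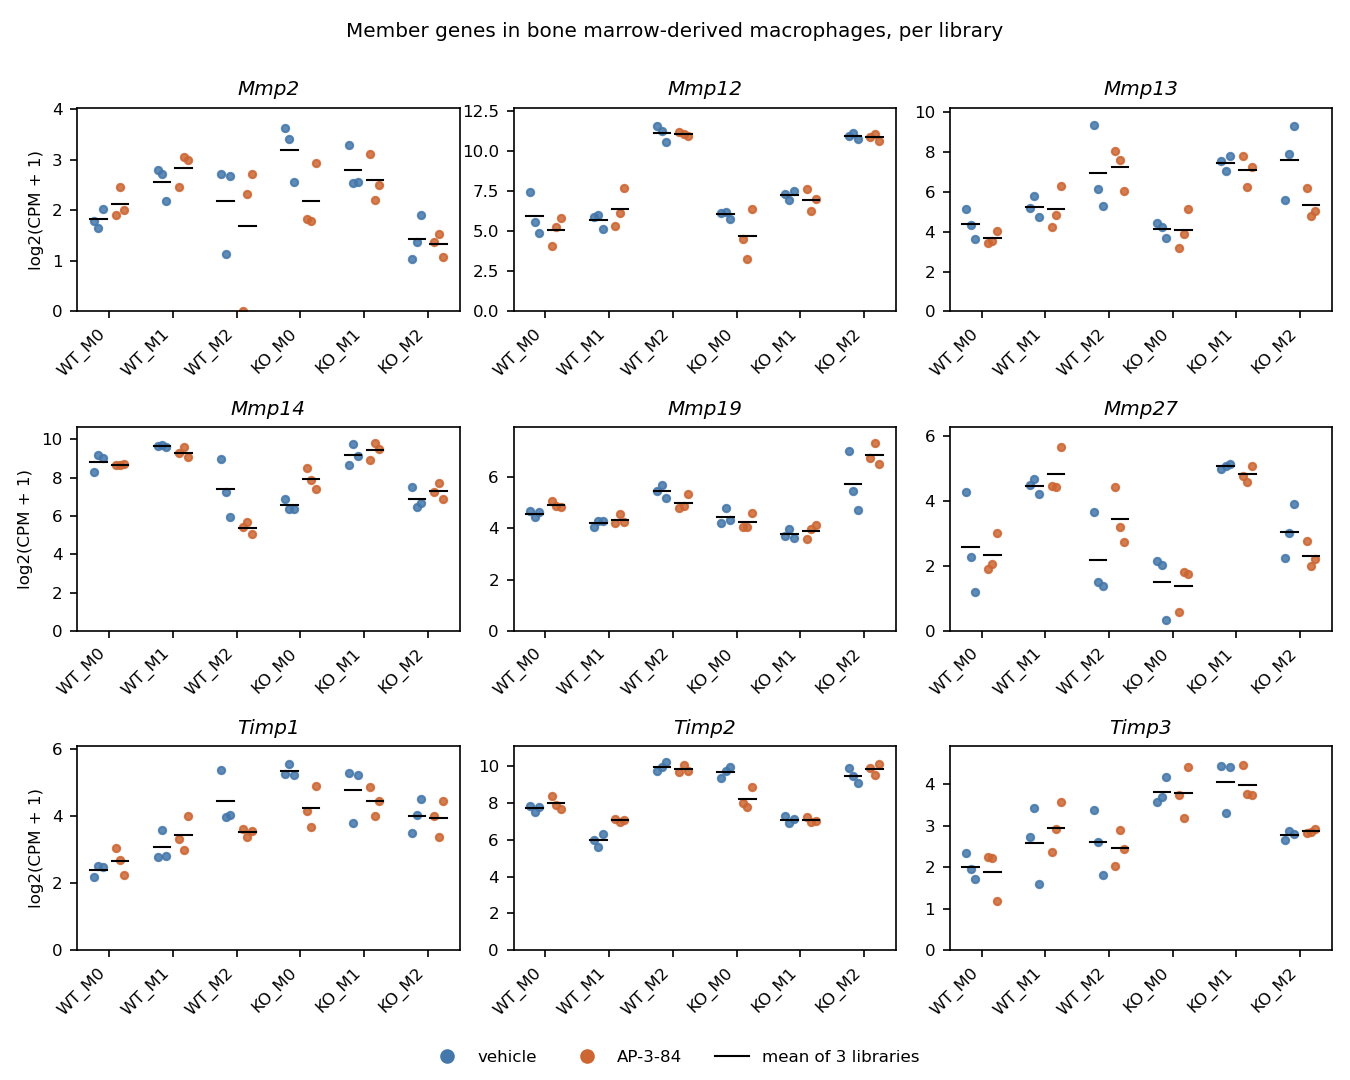
Level of each of the 9 genes in the 36 bone marrow-derived libraries, as log2(CPM + 1), by genotype and polarization, with vehicle (blue) or AP-3-84 (orange). Each point is 1 library and the line is the mean of the 3 points. Mmp12 reads 1541 CPM or more in every M2 library and 204 CPM or less in all others, and Timp2 is lowest in M1 cells.

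Mmp12 read 172, 46.1 and 28.6 CPM in WT_M0 and 3043, 2380 and 1541 CPM in WT_M2 vehicle libraries, 28.1-fold apart (log2 4.81 ± 0.73 SE, adjusted p = 2.7e-05). WT_M0 replicate 1 stood highest of its group, and without it the log2 difference was 5.95. In KO cells it read 70.8, 72.6 and 53.3 CPM in M0 and 1998, 2214 and 1701 CPM in M2, 30.1-fold apart (log2 4.91 ± 0.73 SE, adjusted p = 1.26e-05). The difference between the genotypes in this rise was 0.10 ± 0.89 on the log2 scale (adjusted p = 0.95).

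Mmp13 was far less even among M2 libraries. It read 33.9, 19.6 and 11.2 CPM in WT_M0 and 652, 70.9 and 37.7 CPM in WT_M2 (log2 3.55 ± 0.94 SE, adjusted p = 0.00725). The rise rests on WT_M2 replicate 1: without it the log2 difference was 1.32 and not called (adjusted p = 0.27), and a fit of only the groups compared did not call it either (adjusted p = 0.164). In KO cells it read 20.7, 18.2 and 11.9 CPM in M0 and 47.8, 241 and 639 CPM in M2 (log2 4.19 ± 0.97 SE, adjusted p = 0.00154), and log2 3.10 without KO_M2 replicate 3, still called. These 2 libraries also had the highest sum of the 9 neutrophil markers in their groups: 4039 CPM beside 593 and 465 in WT_M2, and 3360 CPM beside 352 and 642 in KO_M2 vehicle. Their part in the Mmp13 values was not tested.

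Timp2 changed with polarization in opposite directions in WT cells. It read 229, 184 and 218 CPM in WT_M0, 61.4, 47.2 and 79.6 CPM in WT_M1 and 840, 979 and 1184 CPM in WT_M2 vehicle libraries, with no overlap between the 3 groups. It fell 3.36-fold with M1 (log2 -1.75 ± 0.25 SE, adjusted p = 1.18e-05) and rose 4.75-fold with M2 (log2 2.25 ± 0.25 SE, adjusted p = 4.89e-08). The KO values were 652, 863 and 989 CPM in M0, 156, 117 and 137 CPM in M1 and 935, 696 and 543 CPM in M2. The fall with M1 was 6.10-fold (log2 -2.61 ± 0.25 SE, adjusted p = 4.36e-09), while M0 and M2 overlapped and were not called apart (log2 -0.20 ± 0.23 SE, adjusted p = 0.514). The M2 change differed between genotypes by log2 -2.45 ± 0.34 SE (adjusted p = 5.94e-06). For the M1 change that difference missed the threshold (log2 -0.86 ± 0.34 SE, adjusted p = 0.0683).

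Timp1 rose with M2 in WT cells and fell in KO cells. The WT values were 3.59, 4.78 and 4.60 CPM in M0 and 40.6, 14.8 and 15.5 CPM in M2 (log2 2.45 ± 0.46 SE, adjusted p = 0.000186), and the log2 difference was 1.79 without WT_M2 replicate 1, the highest library. In KO cells it read 37.2, 46.8 and 36.5 CPM in M0 and 10.3, 15.5 and 21.8 CPM in M2 (log2 -1.33 ± 0.40 SE, adjusted p = 0.00919). The fall was not called without KO_M2 replicate 1 (adjusted p = 0.0511). The test of the difference between genotypes gave log2 -3.78 ± 0.61 SE (adjusted p = 4.37e-05), and log2 -3.14 without WT_M2 replicate 1 (adjusted p = 0.000231).

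Timp3 and Mmp2 also fell with M2 in KO cells, at low levels that ran from 1.06 to 20.6 CPM over the bone marrow-derived vehicle libraries. Timp3 read 4.04, 2.87 and 2.30 CPM in WT_M0, 9.46, 5.13 and 2.53 CPM in WT_M2, 11.0, 12.0 and 17.0 CPM in KO_M0 and 5.31, 6.31 and 5.95 CPM in KO_M2. The KO groups were called apart (log2 -1.18 ± 0.45 SE, adjusted p = 0.0372) and the WT groups were not (adjusted p = 0.211). The KO call was lost when any 1 of the 6 libraries except KO_M0 replicate 1 was left out (adjusted p from 0.0511 to 0.145). Mmp2 read 11.3, 9.54 and 4.87 CPM in KO_M0 and 1.06, 1.58 and 2.73 CPM in KO_M2 and fell (log2 -2.23 ± 0.60 SE, adjusted p = 0.00401). Its WT values, 2.47, 2.15 and 3.07 CPM in M0 and 5.57, 1.21 and 5.38 CPM in M2, overlapped and were not called apart (adjusted p = 0.465). In the test of the M2 change in KO less that in WT, where 27.1% of all genes were called, 4 of the 9 genes were lower: Timp1, Timp2, Mmp2 (log2 -2.89 ± 0.86 SE, adjusted p = 0.0124) and Timp3 (log2 -2.08 ± 0.68 SE, adjusted p = 0.023). The last of these was lost without KO_M0 replicate 3 (adjusted p = 0.0624), WT_M0 replicate 3 (0.0515) or WT_M2 replicate 1 (log2 -1.50, 0.12). All these comparisons with M0 share their M0 libraries. Between KO_M0 and KO_M2 vehicle libraries the fibroblast and mesothelial markers went from 173 to 305 CPM down to 50.7 to 83.8 CPM in sum, and the 8 macrophage markers from 32522 to 39143 CPM down to 5970 to 18476 CPM. Their part in the falls of Timp1, Timp3 and Mmp2 was not tested.

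Mmp19 read 17.6, 26.8 and 19.2 CPM in KO_M0 and 131, 42.8 and 25.3 CPM in KO_M2. It was called as higher in M2 (log2 1.64 ± 0.35 SE, adjusted p = 0.000423) although 1 KO_M2 library lay within the M0 range, and without KO_M2 replicate 1 the log2 difference was 0.70, with adjusted p = 0.0305. A fit of only the 2 groups did not call it (adjusted p = 0.0953). In WT cells every M2 library, at 42.9, 51.3 and 35.5 CPM, was above every M0 library, at 24.5, 20.8 and 23.8 CPM, and the difference just missed the threshold (log2 0.91 ± 0.34 SE, adjusted p = 0.0531). DESeq2 called it (adjusted p = 0.038), as did a fit of only the 2 groups (0.0131).

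**Figure D3:**
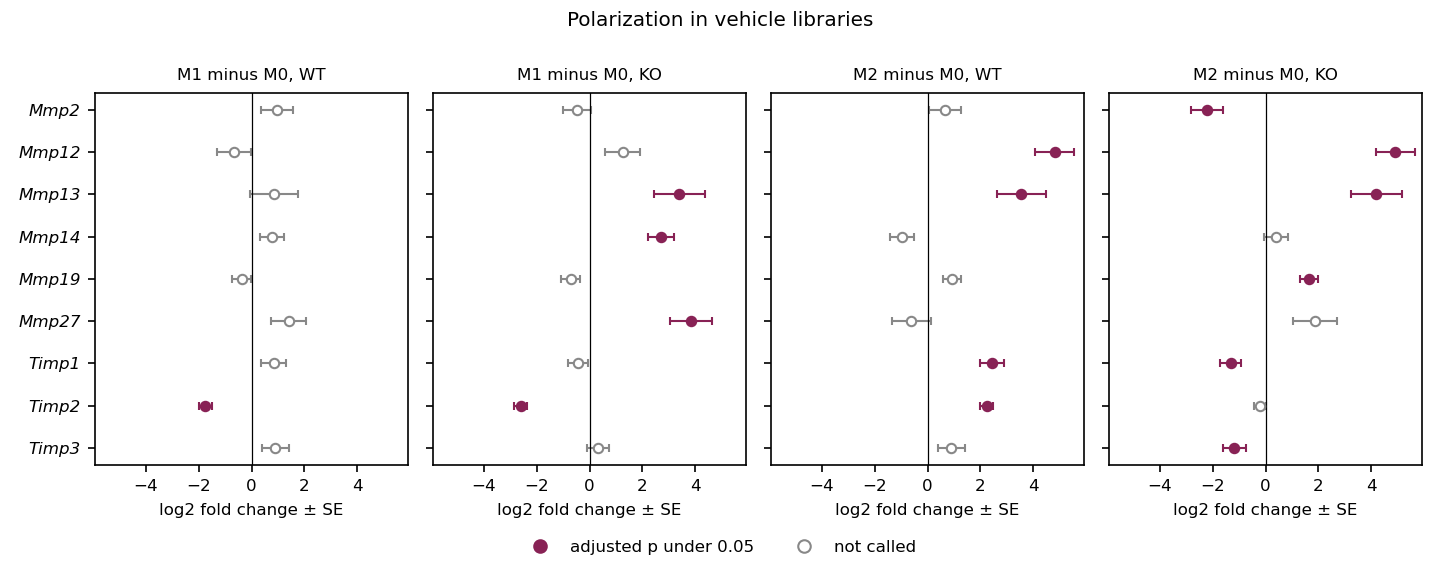
Log2 fold change ± SE of each of the 9 genes between polarized and M0 vehicle libraries, 3 against 3, for M1 and M2 in WT and KO cells. Filled points are called at an adjusted p under 0.05. Mmp12 is near 4.8 to 4.9 with M2 in both genotypes, Timp2 is below 0 with M1 in both, and Timp1 lies on opposite sides of 0 with M2.

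With M1 polarization, Timp2 was the 1 gene of 9 called in WT cells (15.5% of all genes were called). In KO cells 4 were called (44.5% of all genes): Mmp13, Mmp14 and Mmp27 rose and Timp2 fell. The median log2 difference of the 9 was 0.84 in WT and 0.32 in KO cells, against 0 and -0.01 over all genes. Mmp27 read 3.41, 3.08 and 0.270 CPM in KO_M0 and 30.2, 32.7 and 33.7 CPM in KO_M1, 14.2-fold apart (log2 3.83 ± 0.79 SE, adjusted p = 0.00033), with 1 to 13 counts per library in KO_M0. Its WT values were 18.2, 3.82 and 1.28 CPM in M0 and 21.2, 24.1 and 17.4 CPM in M1 (log2 1.40 ± 0.67 SE, adjusted p = 0.168). Without WT_M0 replicate 1, which stood near the M1 libraries, the log2 difference was 3.00 and called (adjusted p = 0.0103).

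Mmp14 read 118, 82.2 and 81.7 CPM in KO_M0 and 406, 857 and 566 CPM in KO_M1 and rose 6.48-fold (log2 2.70 ± 0.49 SE, adjusted p = 9.16e-05). The WT values were 316, 571 and 531 CPM in M0 and 819, 825 and 779 CPM in M1, without overlap and without a call (log2 0.77 ± 0.46 SE, adjusted p = 0.282), though a fit of only the 2 groups called it (adjusted p = 0.0364). The M1 change was larger in KO than in WT cells (log2 1.92 ± 0.66 SE, adjusted p = 0.0381), the 1 gene of 9 called in that test, where 20.7% of all genes were. That call was lost when any 1 of the 12 libraries except the replicates 1 of KO_M0, KO_M1 and WT_M0 was left out (adjusted p from 0.0569 to 0.0968). In WT_M2 Mmp14 read 508, 154 and 61.4 CPM (log2 -0.97 ± 0.46 SE, adjusted p = 0.133 against M0), and without replicate 1 it was called as lower (-2.15, adjusted p = 0.000446).

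Mmp13 rose with M1 in KO cells, from 20.7, 18.2 and 11.9 CPM in M0 to 184, 132 and 222 CPM in M1 (log2 3.40 ± 0.95 SE, adjusted p = 0.00546). In WT cells the M1 libraries read 35.5, 55.4 and 25.9 CPM and were not called apart from M0 (log2 0.84 ± 0.91 SE, adjusted p = 0.593). The difference between the genotypes in that change was not called (log2 2.56 ± 1.29 SE, adjusted p = 0.168). The neutrophil markers summed to 1743, 994 and 2556 CPM in KO_M1 vehicle replicates 1 to 3, with replicate 3 highest and replicate 2 lowest, as for Mmp13, and to 598, 750 and 612 CPM in KO_M0. Their part in the rise was not tested.

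Mmp12 read 70.8, 72.6 and 53.3 CPM in KO_M0 and 160, 124 and 183 CPM in KO_M1, without overlap, and was not called (log2 1.25 ± 0.64 SE, adjusted p = 0.119), while a fit of only the 2 groups called it (adjusted p = 0.000168). In WT cells its M0 and M1 groups overlapped (log2 -0.68 ± 0.65 SE, adjusted p = 0.542). Mmp2, Mmp19, Timp1 and Timp3 were called with M1 in neither genotype, with log2 differences of 0.96, -0.37, 0.84 and 0.90 in WT and of -0.48, -0.72, -0.45 and 0.32 in KO cells.

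Of the 17 other metalloproteinase genes, 3 were tested in bone marrow-derived cells, among them Mmp8, a neutrophil collagenase, and the gelatinase Mmp9. Mmp9 was higher in WT_M2 than in WT_M0 (log2 2.68), and Mmp8 (2.31) and Mmp9 (3.26) were higher in KO_M1 than in KO_M0. The neutrophil markers summed to 4039 CPM in WT_M2 replicate 1, beside 593 and 465 CPM in its group. Their sums were 994 to 2556 CPM in KO_M1 and 598 to 750 CPM in KO_M0 vehicle. Mmp8 and Mmp9 were not read without single libraries, and the part of these markers was not tested. Among cathepsins, 4 of 5 rose with M2 in WT cells, including Ctsk (2.37) and Ctss (1.50), with a list median of 1.11 against 0.01 over all genes, of which 23.4% were called. In KO cells Ctsk and Ctsl rose and Ctsd fell with M2, with a median of -0.02 (38% of all genes called), and in the test of the difference between genotypes Ctsb, Ctsd and Ctss were lower, with a median of -0.96. Of 16 matrix substrates tested, 9 fell with M2 in KO cells, including Sparc (-2.76) and Col1a1 (-2.12), and Fn1 rose (1.69), with a median of -2.00 against 0.02. In WT cells Fn1 (4.03) and Sparc (1.84) rose with M2 and Col4a2 fell, with a median of 0.37.

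Between genotypes, all 3 inhibitors were higher in KO than in WT cells at M0 and at M1, and none was called at M2. At M0 5 of the 9 genes were called (33.2% of all genes): Timp1, Timp2, Timp3 and Mmp2 were higher and Mmp14 was lower in KO cells. At M1 the 3 called genes were the inhibitors (11.6% of all genes). At M2 no gene of the 9 was called (3.56% of all genes). There 1 of the 9, Mmp14, had an unadjusted p under 0.05, and DESeq2 called 0. The median log2 difference of the 9 was -0.12 at M0, 1.12 at M1 and -0.24 at M2, against 0.03, 0.0037 and 0.01 over all genes.

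At M0, with the values of the 6 libraries given above, Timp1 was 9.24-fold higher in KO cells (log2 3.21 ± 0.45 SE, adjusted p = 4.77e-06), Timp2 was 3.96-fold higher (log2 1.99 ± 0.24 SE, adjusted p = 6.56e-07) and Timp3 was 4.29-fold higher (log2 2.10 ± 0.48 SE, adjusted p = 0.0012). Mmp14, on the other hand, was 5.02-fold lower (log2 -2.33 ± 0.48 SE, adjusted p = 0.000732). These 4 held under every alternative, and none of them overlapped between genotypes. Mmp2 was 3.32-fold higher (log2 1.73 ± 0.58 SE, adjusted p = 0.0205), a call lost without replicate 1 or 2 of KO_M0 or of WT_M0 (adjusted p from 0.0539 to 0.0813). Mmp12, Mmp13, Mmp19 and Mmp27 were not called, with log2 differences of -0.33, -0.36, -0.12 and -1.80.

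At M1, Timp1 read 5.96, 11.1 and 6.04 CPM in WT and 38.7, 12.9 and 36.6 CPM in KO cells (log2 1.92 ± 0.43 SE, adjusted p = 0.00397). Timp2, with its M1 values given above, was 2.18-fold higher in KO cells (log2 1.12 ± 0.25 SE, adjusted p = 0.00336). Timp3 read 5.66, 9.80 and 2.01 CPM in WT and 20.6, 8.86 and 20.5 CPM in KO cells, with 1 KO library inside the WT range (log2 1.52 ± 0.45 SE, adjusted p = 0.0253), and its call was lost without replicate 1 or 3 of either group (adjusted p from 0.0809 to 0.142) and in a fit of only these groups (0.0699). Every KO_M1 library was above every WT_M1 library for Mmp12 (160, 124 and 183 against 56.9, 63.9 and 34.5 CPM) and for Mmp13, but neither passed the test (adjusted p = 0.111 and 0.102). A fit of only these groups called both, at adjusted p = 0.00184 and 0.00228, and DESeq2 called Mmp13 (adjusted p = 0.0484).

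**Figure D4:**
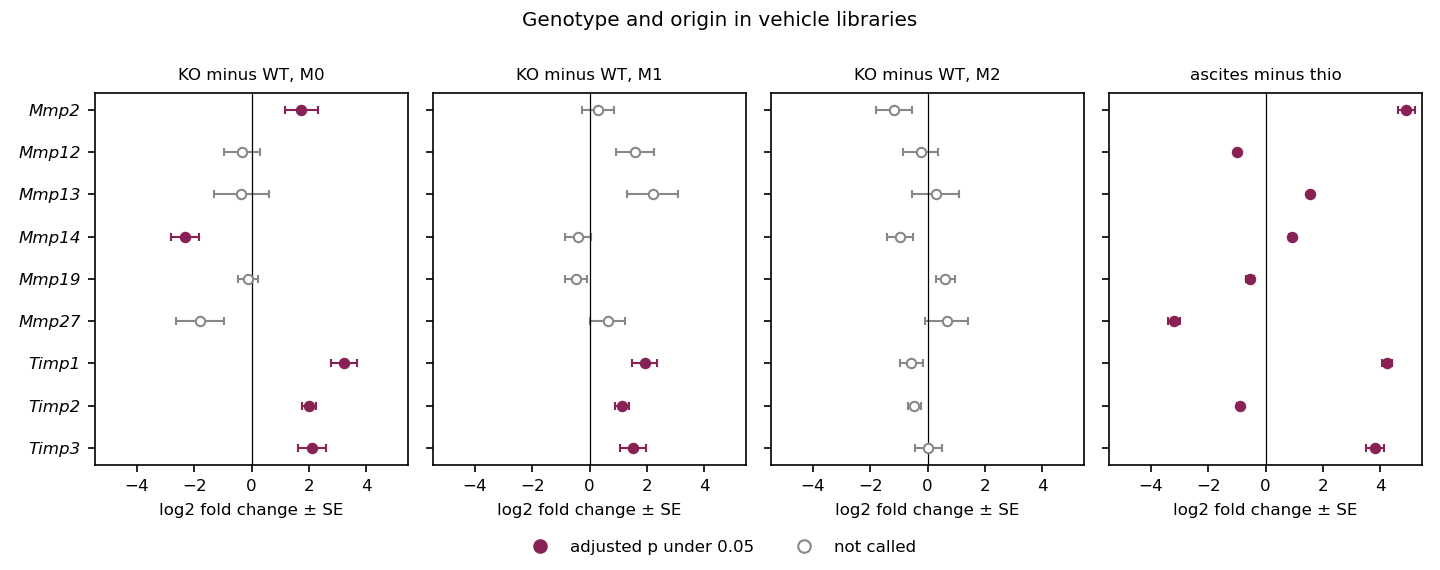
Log2 fold change ± SE of each of the 9 genes between KO and WT vehicle libraries at M0, M1 and M2, and between ascites and thio vehicle libraries, 3 against 3 libraries each. Filled points are called at an adjusted p under 0.05. The 3 inhibitors lie above 0 at M0 and M1 and near 0 at M2, and all 9 points of the ascites comparison are filled.

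The 12 markers of fibroblasts and mesothelium moved with the inhibitors here. They summed to between 24.3 and 26.7 CPM in WT_M0 and between 173 and 305 CPM in KO_M0 vehicle, to between 23.9 and 49.8 CPM in WT_M1 and between 103 and 143 CPM in KO_M1, and to between 44.8 and 60.0 CPM in WT_M2 and between 50.7 and 83.8 CPM in KO_M2. In KO_M0 the sum was led by collagens, with Col1a1 at 116 CPM, while Pdgfra read 0.729 CPM, Dcn 0.629 CPM and Lum 0.0873 CPM, and Msln, Upk3b and Wt1 were at 0. In WT_M0 4 of the 12 were at 0 (Pdgfra, Msln, Wt1 and Thy1). At M1 the 8 macrophage markers also differed, with sums of 44015 to 46963 CPM in WT and 16316 to 25726 CPM in KO libraries. They differed at M2 as well (24997 to 30977 CPM in WT, 5970 to 18476 CPM in KO). At M0 they overlapped (30428 to 38850 CPM in WT, 32522 to 39143 CPM in KO). The 9 neutrophil markers differed at M0 (283 to 512 CPM in WT, 598 to 750 CPM in KO). They differed at M1, with 442 to 571 CPM in WT and 994 to 2556 CPM in KO. At M2 they overlapped (465 to 4039 CPM in WT, 352 to 3360 CPM in KO). The part of these markers in the inhibitors' levels was not tested. Of 16 matrix substrates 12 were higher in KO_M0 than in WT_M0, including Sparc (log2 4.35), Col1a1 (3.50) and Fn1 (3.12), and Spp1 (-2.10) and Vcan (-1.38) were lower, with a median of 3.22 against 0.03 over all genes. Plau, the urokinase activator of plasminogen, was lower in KO_M0 (-1.74). At M1 3 of the 16 substrates were higher (Col1a1, Col1a2 and Sparc), and at M2 none was called. Mmp9 was the 1 other metalloproteinase gene called between genotypes, lower in KO_M2 (log2 -4.15). This comparison uses WT_M2 replicate 1, where the neutrophil markers summed to 4039 CPM, beside 593 and 465 CPM in its group. Mmp9 was not read without that library, and the part of these markers was not tested.

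With AP-3-84, 4 of the 9 genes rose in thio macrophages: Mmp12, Mmp13, Mmp19 and Timp1 (4.32% of all genes were called). None fell, and the median log2 change of the 9 was 0.37 against 0.03 over all genes. In ascites macrophages none of the 9 was called (1.79% of all genes). There Mmp13 alone had an unadjusted p under 0.05, and DESeq2 called 0.

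Timp1 had the largest of these rises, from 2.43, 2.61 and 2.33 CPM with vehicle to 5.42, 6.55 and 3.28 CPM with AP-3-84, 2.07-fold (log2 1.05 ± 0.19 SE, adjusted p = 0.00383). Mmp13 rose from 43.7, 41.4 and 42.5 CPM to 66.4, 72.8 and 63.2 CPM, 1.59-fold (log2 0.67 ± 0.08 SE, adjusted p = 8.86e-05). The elastase Mmp12 rose from 2192, 2333 and 2299 CPM to 3122, 3344 and 2993 CPM, 1.39-fold (log2 0.47 ± 0.05 SE, adjusted p = 6.06e-05). For all 3 genes, each treated library was above each vehicle library, and the calls held under every alternative. Mmp19 rose from 25.6, 23.0 and 30.0 CPM to 38.7, 39.9 and 31.4 CPM (log2 0.48 ± 0.13 SE, adjusted p = 0.0361), a call lost without replicate 1 or 2 of either group (adjusted p from 0.122 to 0.18) and with median-ratio size factors (0.0593). Every treated library was below every vehicle library for Mmp14, at 58.8, 72.7 and 58.8 CPM (log2 -0.35 ± 0.10 SE, adjusted p = 0.076), and for Timp2, at 2217, 2176 and 2528 CPM (log2 -0.25 ± 0.09 SE, adjusted p = 0.155), but neither passed the test. A fit of only these groups called both, and Mmp14 was also called by DESeq2 (adjusted p = 0.0495) and without AP-3-84 replicate 2 (log2 -0.46, adjusted p = 0.0257).

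In ascites macrophages with AP-3-84, Mmp13 read 103, 120 and 105 CPM (log2 -0.19 ± 0.08 SE, adjusted p = 0.388), Mmp12 1239, 1165 and 1138 CPM (log2 0.05 ± 0.05 SE) and Timp1 48.3, 50.5 and 49.6 CPM (log2 0.08 ± 0.14 SE). Mmp2 read 14.0, 12.4 and 12.5 CPM with the compound, below all 3 vehicle libraries, and did not pass the test (log2 -0.38 ± 0.21 SE, adjusted p = 0.562). The response itself differed between ascites and thio macrophages for 2 of the 9 genes, where 0.118% of all genes were called: Mmp13 (log2 -0.85 ± 0.11 SE, adjusted p = 0.00261) and Mmp12 (log2 -0.42 ± 0.08 SE, adjusted p = 0.0463). The Mmp13 call held under every alternative. The Mmp12 call was lost under 12 of 18, among them the omission of any 1 of the 12 libraries except ascites AP-3-84 replicate 1 and thio AP-3-84 replicate 3 (adjusted p from 0.0911 to 0.206), and its log2 values stayed between -0.45 and -0.37. For Timp1 the difference in response was not called (log2 -0.97 ± 0.24 SE, adjusted p = 0.22), and it was called without thio AP-3-84 replicate 3 (-1.20, adjusted p = 0.00534).

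Sums of the fibroblast and mesothelial markers ran from 32.0 to 46.4 CPM in thio libraries with AP-3-84, beside the 20.9 to 32.7 CPM with vehicle, and those of the 8 macrophage markers from 27662 to 32826 CPM beside 34346 to 34808 CPM. Their part in the rises was not tested. Plaur, the receptor of urokinase, also rose in thio macrophages (log2 0.41). Col4a1 (0.83), Lamc1 (0.52), Sparc (0.52) and Vcan (1.47) rose and Fn1 fell (-0.22) among 17 matrix substrates, with a median of 0.68. None of the 7 other metalloproteinase genes tested, the 10 ADAM and ADAMTS proteases or the 5 cathepsins was called there.

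**Figure D5:**
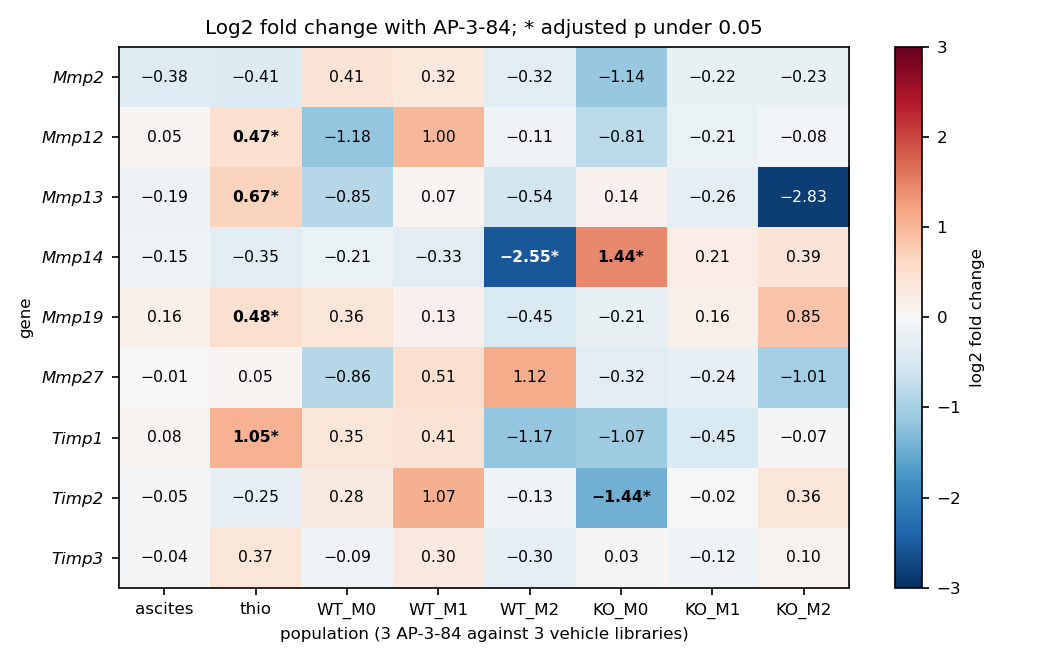
Log2 fold change of each of the 9 genes with AP-3-84 against vehicle in the 8 populations, 3 against 3 libraries each. Red is higher and blue lower with the compound, and a star marks an adjusted p under 0.05. Of the 72 values 7 carry a star, 4 of them in thio macrophages.

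In bone marrow-derived cells 3 pairs of gene and population changed with AP-3-84. In KO_M0 Timp2 fell and Mmp14 rose (2 of 9, beside 20.7% of all genes), and in WT_M2 Mmp14 fell (1 of 9, beside 1.21%). In WT_M0 (0.144% of all genes), WT_M1 (0.017%), KO_M1 (0%) and KO_M2 (0.0509%) none of the 9 was called. At an unadjusted p under 0.05 there were 0 of the 9 in WT_M0, 1 in WT_M1, 0 in KO_M1 and 2 in KO_M2, and DESeq2 called 0, 1, 0 and 0. In KO_M1 the log2 changes of the 9 ran from -0.45 (Timp1) to 0.21 (Mmp14). There edgeR and DESeq2 called no gene at all, and 206 of 11779 genes had an unadjusted p under 0.05.

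Timp2 in KO_M0 fell from 652, 863 and 989 CPM with vehicle to 251, 216 and 456 CPM with AP-3-84, 2.71-fold (log2 -1.44 ± 0.24 SE, adjusted p = 8.62e-05). In WT_M0 it read 229, 184 and 218 CPM and 328, 234 and 205 CPM (log2 0.28 ± 0.24 SE, adjusted p = 0.735). The response differed between the genotypes (log2 -1.72 ± 0.34 SE, adjusted p = 0.000917), the 1 gene of 9 called in that test, where 17% of all genes were, and the call held under every alternative. With the compound, KO_M0 replicate 2 lay within the range of the WT_M0 vehicle libraries and replicates 1 and 3 above it.

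Mmp14 in KO_M0 rose from 118, 82.2 and 81.7 CPM to 362, 237 and 167 CPM (log2 1.44 ± 0.47 SE, adjusted p = 0.0318), without overlap. The call was lost without AP-3-84 replicate 1 (log2 1.10, adjusted p = 0.165) or 2 (0.0795) or vehicle replicate 2 (0.0992) or 3 (0.103). In WT_M0 it read 404, 406 and 417 CPM with the compound, within the vehicle range (log2 -0.21 ± 0.46 SE, adjusted p = 0.918). The difference in response between genotypes was not called (log2 1.65 ± 0.66 SE, adjusted p = 0.0845). It was called without KO_M0 AP-3-84 replicate 3 (adjusted p = 0.0459) and in a fit of only these groups (adjusted p = 0.0171). Timp1 in KO_M0 read 16.9, 11.8 and 28.9 CPM with AP-3-84, below all 3 vehicle libraries, and just missed the threshold (log2 -1.07 ± 0.39 SE, adjusted p = 0.0527). DESeq2 called it (adjusted p = 0.0419).

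KO_M0 AP-3-84 replicate 3 lay nearer to the vehicle libraries than replicates 1 and 2 for Mmp2, Mmp12, Timp1 and Timp2. Without it Mmp14 and Timp2 stayed called in KO_M0. Timp1 (-1.48, adjusted p = 0.0118), Mmp2 (-1.76, adjusted p = 0.0367) and Mmp12 (-2.12, adjusted p = 0.0298) were then called as lower with the compound. The share of all genes called without that library is not given here, so these calls cannot be set against it. The fibroblast and mesothelial markers summed to 146, 59.7 and 240 CPM in KO_M0 AP-3-84 replicates 1 to 3, beside 293, 305 and 173 CPM with vehicle. Their part in the changes was not tested. Furin, which activates the Mmp14 precursor, fell in KO_M0 (log2 -1.17), as did Lrp1 (-0.74), a receptor that clears metalloproteinases, Cd63 (-0.97), Col4a1 (-1.63) and the cathepsins Ctsb (-0.91) and Ctsd (-0.98).

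Mmp14 in WT_M2 read 508, 154 and 61.4 CPM with vehicle and 41.7, 49.9 and 32.2 CPM with AP-3-84 (log2 -2.55 ± 0.50 SE, adjusted p = 0.00755). All treated libraries were below all vehicle libraries, which themselves spread widely. Without vehicle replicate 1 the log2 change was -1.39 and not called (adjusted p = 0.106). The call was also lost without AP-3-84 replicate 1 (adjusted p = 0.0673) and in a fit of only the 2 groups (adjusted p = 0.403). In KO_M2 Mmp14 read 183, 86.7 and 102 CPM and 154, 212 and 119 CPM (log2 0.39 ± 0.47 SE, adjusted p = 0.784). The difference in response, KO less WT, was the 1 of 9 called (log2 2.93 ± 0.68 SE, adjusted p = 0.0236), where 1.77% of all genes were, and without WT_M2 vehicle replicate 1 it was 1.79 and not called (adjusted p = 0.0712). It was also lost when any AP-3-84 library of WT_M2, KO_M2 AP-3-84 replicate 2, or KO_M2 vehicle replicate 2 or 3 was left out (adjusted p from 0.0523 to 0.0964), and in a fit of only these groups (0.237). The neutrophil markers summed to 210 to 547 CPM in WT_M2 libraries with AP-3-84, beside the 465 to 4039 CPM with vehicle, and their part was not tested. Timp1 in WT_M2 read 11.4, 9.38 and 10.8 CPM with the compound, below its 3 vehicle libraries, and did not pass the test (log2 -1.17 ± 0.42 SE, adjusted p = 0.203). Without vehicle replicate 1 its log2 change was -0.53 (adjusted p = 0.69).

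Timp2 in WT_M1 read 61.4, 47.2 and 79.6 CPM with vehicle and 137, 122 and 136 CPM with AP-3-84. The groups did not overlap (log2 1.07 ± 0.25 SE), but edgeR did not call the gene (adjusted p = 0.12). DESeq2 did (adjusted p = 0.0208), as did a fit of only these groups (adjusted p = 0.00431) and edgeR without vehicle replicate 3 (log2 1.27, adjusted p = 0.0498). In KO_M1 Timp2 read 156, 117 and 137 CPM and 151, 123 and 130 CPM (log2 -0.02 ± 0.24 SE, adjusted p = 1). The difference in response at M1 was not called for any of the 9 genes (0.00849% of all genes). For Timp2 it was log2 -1.09 ± 0.34 SE (adjusted p = 0.584), the 1 gene with an unadjusted p under 0.05, and DESeq2 called 0.

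In KO_M2 Mmp13 read 47.8, 241 and 639 CPM with vehicle and 72.0, 26.6 and 32.4 CPM with AP-3-84 (log2 -2.83 ± 0.90 SE, adjusted p = 0.208), and Mmp19 read 131, 42.8 and 25.3 CPM and 107, 160 and 91.7 CPM (log2 0.85 ± 0.32 SE, adjusted p = 0.265). Both overlapped through vehicle replicate 1. Without KO_M2 vehicle replicate 3 the log2 change of Mmp13 was -1.74 (adjusted p = 0.859). Without replicate 1 both genes were called: Mmp13 was lower (-3.34, adjusted p = 0.0315) and Mmp19 higher (1.81, adjusted p = 0.000133). The neutrophil markers summed to 554, 288 and 291 CPM in KO_M2 AP-3-84 replicates 1 to 3, beside the 352, 642 and 3360 CPM with vehicle, and their part was not tested. Mmp27 and Timp3 were called with AP-3-84 in none of the 8 populations.

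Ordered by mean level in the 6 bone marrow-derived vehicle groups, Mmp12 ran from WT_M2 (2321 ± 752 CPM, SD, n = 3) and KO_M2 (1971 ± 257) to KO_M1 (156 ± 29.4), WT_M0 (82.3 ± 78.4), KO_M0 (65.6 ± 10.7) and WT_M1 (51.8 ± 15.3), and only KO_M2 and KO_M1 among neighbours did not overlap. The order of Timp2 was WT_M2 (1001 ± 173), KO_M0 (835 ± 170), KO_M2 (725 ± 197), WT_M0 (211 ± 23.7), KO_M1 (137 ± 19.5) and WT_M1 (62.7 ± 16.2), with overlap only among the first 3 groups. Mmp14 ran from WT_M1 (808 ± 25.0), KO_M1 (610 ± 229), WT_M0 (473 ± 137), WT_M2 (241 ± 236) and KO_M2 (124 ± 51.5) to KO_M0 (94.0 ± 20.9), and each group overlapped its neighbour. The place of WT_M2 in this order depends on replicate 1, at 508 CPM beside 154 and 61.4 CPM. Mmp27 was highest in KO_M1 (32.2 ± 1.79) and next in WT_M1 (20.9 ± 3.38), which did not overlap each other. The 4 groups below averaged from 8.20 to 2.25 CPM, and 1 library of WT_M0, at 18.2 CPM, lay within the range of WT_M1. For Timp1, WT_M0 (4.32 ± 0.642) was lowest and did not overlap WT_M1 (7.71 ± 2.96) above it, while the 4 groups over these, from KO_M0 (40.2 ± 5.74) down to KO_M2 (15.9 ± 5.75), each overlapped the next.

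Across the 36 bone marrow-derived libraries, the genes whose log2 CPM followed a member most closely were Bhlhe40 (Pearson r = 0.967) and Chil3 (0.964) for Mmp12, Amz1 (0.965) and Igf1 (0.951) for Timp2, and Irak3 (0.934) and Aoah (0.921) for Mmp14. Likeness was weaker for Timp1, with Fstl1 (0.864) and Sparc (0.835), and for Timp3, with Enah (0.808) and with Timp1 itself (0.797). Over the 12 peritoneal libraries the closest genes were Slc30a1 for Mmp12 (0.992), Slc7a1 for Mmp13 (0.973), Col4a2 for Timp1 (0.994), Nptn for Timp2 (0.993) and Racgap1 for Timp3 (0.990). These values are a description of libraries that share their groups.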

How the data were processed

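The files hold the authors' deposited raw counts per gene for 48 libraries of 3′ mRNA sequencing (QuantSeq FWD, per the labels' protocols). All values are whole numbers. RSEM, Bowtie2 and DESeq2 are named per the submitters' processing notes, without versions or roles. If RSEM made the counts, they are rounded estimates. Genome build and strand setting of the counting: not given in the sources used here.

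The test was edgeR's quasi-likelihood F test (edgeR 4.0.16 with limma 3.58.1, R 4.3.3) after TMM scaling and filterByExpr, with robust dispersions and 1 mean per group. The 12 peritoneal and 36 bone marrow-derived libraries were fitted apart, and no value was compared between them. Genes were called at a two-sided Benjamini-Hochberg adjusted p under 0.05 over all genes tested, 16955 and 11779. A standard error (SE) is the log2 fold change over the square root of F. CPM divide counts by the TMM-scaled library total, in units of 1000000, and fold changes carry edgeR's small prior count. In all, 22 comparisons were made. The counting error of each value follows its depth, with totals from 3081707 to 19417581 counts.

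The 9 genes and all gene lists were chosen with earlier results of these data known. By the rule for named genes these were the 9 members and, from the lists, genes called in the comparison described. Members that were not called are given by count where the text has no value for them. The list of plasminogen activation is not reported here as a whole. For likeness, the genes with the highest Pearson r of log2 CPM were taken among those with an average log2 CPM of at least 3. The procedure was tested on simulated data. Results were recomputed with DESeq2 1.42.0, with median-ratio size factors, with total counts as the only scaling, without the filter on low counts, with a replicate block, on the compared groups alone, and without each library in turn. Replicate numbers were not used as pairs in the main test. Of 24 pairs of same-numbered vehicle and AP-3-84 libraries, 5 had deviations from their group means that correlated above 0.1. The highest were KO_M1 replicates 1 (0.42) and 2 (0.51). Whether same-numbered libraries shared a source in some populations is not known. No 2 replicates agreed within sampling noise (lowest chi-square per gene 2.51 over 48 pairs). Gene positions are of GRCm38, and figures were drawn with matplotlib 3.10.9 in Python 3.11.15.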

Additional observations from a re-analysis of the deposited data

Results flagged for a closer look

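A difference between effects was called in 9 tests among the 9 genes by edgeR's quasi-likelihood test with Benjamini-Hochberg adjustment. The response to AP-3-84 was lower in ascites than in thio macrophages for Mmp13 (log2 -0.85, adjusted p = 0.00261) and for Mmp12 (log2 -0.42, adjusted p = 0.0463). It was lower in KO than in WT cells at M0 for Timp2 (log2 -1.72, adjusted p = 0.000917) and higher in KO than in WT cells at M2 for Mmp14 (log2 2.93, adjusted p = 0.0236). The M1 change of Mmp14 was more positive in KO than in WT cells (log2 1.92, adjusted p = 0.0381). The M2 change was more negative in KO than in WT cells for Timp1 (log2 -3.78, adjusted p = 4.37e-05), Mmp2 (log2 -2.89, adjusted p = 0.0124), Timp2 (log2 -2.45, adjusted p = 5.94e-06) and Timp3 (log2 -2.08, adjusted p = 0.023). Of all genes, 0.118% were called for the ascites less thio response. For the KO less WT response 17% were called at M0 and 1.77% at M2. For the M1 and M2 changes 20.7% and 27.1% were called. Of 18 alternatives, 12 lost the Mmp12 call and 3 the Timp3 call. The Mmp14 call was lost under 9 for the M1 change and under 8 for the response at M2. The other calls held under every alternative.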

How the results depend on the processing

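Of 198 pairs of gene and comparison tested, 70 were followed under the alternatives: those called and others picked for report. No fold change of these changed its sign. Pairs with a fold change near 0, where a sign turns easily, were largely left out by this choice. Of the 48 called pairs, 35 stayed called under every alternative and 13 did not, 12 of them by the omission of a single library. The counts of called genes among the 9 under the alternatives follow. Apart from DESeq2, the shares of all genes called in these refits are not given here. The counts thus cannot show whether the 9 genes moved more than other genes did. Leaving out each library in turn gave the first of them. With AP-3-84 they were 0 to 0 in ascites, 3 to 4 in thio, 0 to 0 in WT_M0, 0 to 1 in WT_M1, 0 to 1 in WT_M2, 1 to 5 in KO_M0, 0 to 0 in KO_M1 and 0 to 2 in KO_M2. For differences in response they were 1 to 3 for ascites less thio, and 1 to 3, 0 to 0 and 0 to 2 for KO less WT at M0, M1 and M2. For vehicle libraries they were 9 to 9 for ascites less thio, 4 to 6, 2 to 3 and 0 to 0 for KO less WT at M0, M1 and M2, 1 to 2 and 4 to 4 for M1 and M2 in WT, 4 to 4 and 4 to 6 for M1 and M2 in KO, and 0 to 2 and 3 to 5 for the differences of these between genotypes. Without the filter on low counts the AP-3-84 counts were 2 in WT_M0, 2 in WT_M1, 2 in WT_M2, 4 in KO_M0 and 2 in KO_M2, those of the KO less WT response 4, 2 and 4 at M0, M1 and M2, and the others 5 for KO less WT at M1, 1 at M2, 5 for M1 in WT and 6 for the M1 difference between genotypes. That fit held 31120 and 22768 genes, and its median prior degrees of freedom were infinite, against 8.44 and 8.72 with the filter, so that a gene's own spread no longer entered its test. Fitting only the groups compared gave 1 in WT_M1, 0 in WT_M2, 2 and 0 for the KO less WT response at M0 and M2, 5 for KO less WT at M1, 2 for M1 in WT and 3 for the M1 difference between genotypes. Over the 70 pairs that fit gained 9 calls and lost 5. DESeq2 gave 1 in WT_M1, where it called 28 genes in all and edgeR called 2. Over the 70 pairs DESeq2 gained 5 calls and lost none. The cause of these differences was not tested. Median-ratio size factors and the replicate block each gave 1 for the ascites less thio response, the block with Mmp12 lost (adjusted p = 0.15). The replicate block also lost Mmp19 with AP-3-84 in thio cells (adjusted p = 0.0665), gained Timp1 with AP-3-84 in KO_M0 (adjusted p = 0.0324) and changed no other call of the 70. The deviations of same-numbered libraries correlated from -0.50 to 0.51. Scaling by total counts alone moved the median of all genes to as far as -0.30 on the log2 scale, for M1 in WT, and gained 1 call, Mmp14 in WT_M2 against WT_M0 (adjusted p = 0.0443). Low counts limit Mmp2, Mmp27, Timp1 and Timp3, which read under 5 CPM in some group.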
